A study of Mus musculus with 10 samples.

Results

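The transcripts described here are the 85 probes of a mouse expression array that were most strongly enriched in brown over white fat. They were taken from a run of 24592 design numbers, ASMM9PARTA019928 to ASMM9PARTA044519, of which 0 appear in the deposited value table and which was therefore taken as the protein-coding block of the array. The array carries 59709 probes in all, after control probes were left out. Members carry the scanner's mark for a spot well above background on both brown fat arrays, and their lower brown fat value is at least 3 above their higher saline white fat value. Values throughout are log2 processed signals from which the array's own 75th percentile was subtracted. A difference of 1 on that scale is 2-fold. In the block, 14615 probes were well above background on both brown fat arrays, and the members are 0.582% of them.

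RNA came from wild type mice on chow that received daily intraperitoneal injections for 7 days, and from brown adipocytes in culture. The tissue groups, with 2 arrays each, were brown fat of saline mice, white fat of saline mice, and white fat of mice given 1 mg/kg of the compound CL316,243, here called CL. The labels call them biological replicates and give no strain, age, sex, white fat depot or number of mice per array, so a test measures the spread between these arrays only. The cells, which the labels call wild type brown adipocytes, had 1 array on each of days 0, 3, 5 and 7 of differentiation, and the labels do not say whether they were a clonal line or from how many mice they came.

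Brown fat burns fatty acids and glucose to make heat, through mitochondria in which the uncoupling protein Ucp1 lets protons flow back without making ATP. Sympathetic nerves, or drugs such as CL that act on the β3-adrenergic receptor, switch this on. In white fat, longer stimulation of the same receptor is known to produce brown-like adipocytes, often called beige. Brown preadipocytes in culture take up lipid and the brown gene program as they differentiate. The probes that are high in brown and low in white fat can therefore be followed under CL and over the days of culture, neither of which entered the choice of members.

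The files give these probes a design number and no gene, sequence or genome position. Of 62 genes looked up by symbol (adipocyte, muscle, immune, endothelial, nerve and epididymal markers, and thermogenic and oxidative genes), 1 was measured under its name, Gk, the glycerol kinase that returns glycerol to lipid synthesis. Its probe lies outside the block and was 4.80-fold higher on the lower brown fat array than on the higher saline white fat array, under the 8-fold that the rule asks. Whether the tissue labels match their other defining markers could therefore not be looked up.

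On the 10 arrays, 55.2% to 78.3% of all probes were well above background, as were 10.9% to 36.4% of negative control spots, so that mark is a lenient one. The 6 tissue arrays were scanned together. Both brown fat arrays and both saline white fat arrays lay in column 1 of the slide, brown in rows 1 and 2 and white in rows 3 and 4, and both CL arrays lay in column 2. Treatment therefore cannot be told apart from slide column, nor tissue from slide row. The cell arrays lay on a slide scanned separately, which holds no tissue array, so tissue and cells are set side by side on the scaled values alone.

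The brown over white difference chose the members and is given as a description. In whole tissue, fewer cells of a type and less RNA per cell cannot be told apart. Over the 85 members the lower brown fat value exceeded the higher saline white fat value by a median of 3.93 (15.3-fold), from 3.02 to 10.87 (8.09-fold to 1872-fold). There were 43 members with a difference of 3 to 4, 16 of 4 to 5 and 26 of 5 or more. Brown fat means ran from -2.73 to 10.57, and 57 members lay above the 75th percentile of the block probes well above background in brown fat. In saline white fat 67 members were well above background on both arrays, 6 on 1 array and 12 on none. Just inside the threshold lay ASMM9PARTA044076, ASMM9PARTA035996 and ASMM9PARTA040211, at 3.02, 3.04 and 3.07, and just outside it ASMM9PARTA041781, ASMM9PARTA032204 and ASMM9PARTA026201, at 2.99, 2.97 and 2.97.

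The 5 largest differences belonged to probes that differed in how bright they were. ASMM9PARTA029387 was at 9.05 and 8.56 in brown fat and at -2.31 and -3.98 in saline white fat. ASMM9PARTA029879, of similar brightness in brown fat, was at 10.34 and 10.11 there and at 1.08 and 1.11 in saline white fat. ASMM9PARTA027899 stood at 7.73 and 8.03 in brown fat against 0.32 and -0.75. These 3 probes were measured above background in both tissues. ASMM9PARTA025232 (4.24 and 4.92 against -4.54 and -3.77) was well above background on 1 saline white fat array, and ASMM9PARTA030969 (1.67 and 2.63 against -6.50 and -5.70) on neither, so the white fat values of ASMM9PARTA030969 are only upper bounds.

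After CL a minority of the members lay far above its saline level on both treated arrays and the majority did not. A member was counted on a CL array when it was well above background there and at least 2-fold above the higher saline white fat value. By that measure 16 of 85 members were above saline on CL replicate 1 and 31 on CL replicate 2, beside 4.84% and 2.9% of the 43444 probes tested. On both arrays it was 14 members (16.5%), beside 0.451% of all probes tested and 0.506% of the tested block probes. A further 19 members passed on 1 CL array, 2 of them on replicate 1 and 17 on replicate 2, and 52 passed on neither. The saline white fat arrays entered both the rule and this count. With members chosen on 1 saline white fat array and CL set against the other, the lists held 105 and 120 members. Of these, 21.0% and 15.8% passed on CL replicate 1 and 37.1% and 35.0% on CL replicate 2, beside the 18.8% and 36.5% above. These shares ask for a step over 1 saline value and not over the higher of 2. No share of all probes was taken on that measure.

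**Figure D1:**
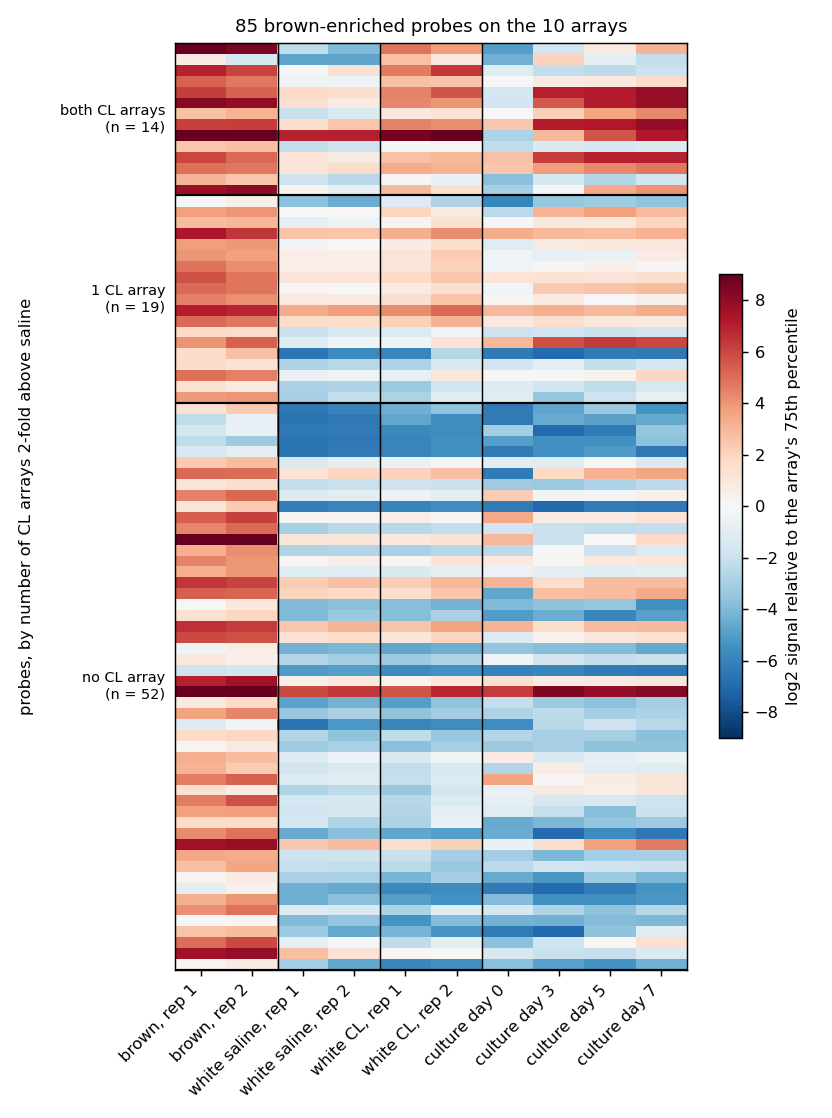
Log2 signal less each array's 75th percentile (colour) for the 85 members (rows) on the 10 arrays (columns), with rows grouped by whether they were at least 2-fold above the higher saline white fat value on both CL arrays (14), on 1 (19) or on neither (52). In the top group the CL columns are redder than the saline columns, and most rows redden again from day 0 to day 7, while the bottom group stays near its saline colour under CL.

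ASMM9PARTA029387, the member furthest above white fat, also had the largest mean CL difference. It stood at 4.80 and 3.77 on the CL arrays, against -2.31 and -3.98 after saline and 9.05 and 8.56 in brown fat, so the 3 tissue groups did not overlap. CL covered 66.5% and 57.9% of the log2 distance from mean saline white fat to mean brown fat on its replicates 1 and 2. ASMM9PARTA029736 covered 68.6% and 97.8% of that distance, from -0.08 and 1.34 after saline to 4.66 and 6.37 after CL, beside 6.94 and 6.07 in brown fat. Its CL values overlapped those of brown fat and not those of saline white fat. ASMM9PARTA020481 overlapped brown fat in the same way, at 1.77 and 1.54 after saline, 4.49 and 5.64 after CL, and 6.19 and 5.31 in brown fat.

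ASMM9PARTA027470 was brighter on both CL arrays than on either brown fat array, a difference that limma did not call (adjusted p = 0.177). On both saline white fat arrays it was not well above background (-4.71 and -4.72). It reached 2.66 and 0.96 after CL, and lay at 0.81 and -1.57 in brown fat, where its replicates differed more than those of any other member. Its CL mean was 65.4-fold above a floor, the lowest signal well above background on each saline array. With normexp background correction its log2 difference from saline was 3.85, a smaller step, so the 65.4-fold is not a lower bound. ASMM9PARTA029772 stood in between, going from 1.34 and 0.74 to 4.35 and 3.99, with brown fat at 8.29 and 7.99. ASMM9PARTA027999 went from -0.32 and -0.36 to 2.67 and 2.53, with brown fat at 5.29 and 4.72. For both probes the 3 groups were separate, with CL between white and brown.

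ASMM9PARTA042747 (-1.98 and -1.28 after saline, 0.98 and 1.22 after CL) and ASMM9PARTA043308 (1.51 and 2.47, then 4.50 and 4.18) showed the same order at smaller steps. The other 6 of the 14 were ASMM9PARTA027899, ASMM9PARTA032083, ASMM9PARTA033923, ASMM9PARTA022238, ASMM9PARTA027436 and ASMM9PARTA028748, with mean CL differences of 2.35, 1.94, 1.94, 1.80, 2.22 and 1.86. Of these, ASMM9PARTA027436 was the brightest member in brown fat (10.71 and 10.44), was already bright in saline white fat (6.91 and 6.96) and reached 8.64 and 9.67 after CL. Over the 14 members the median share of the white to brown distance covered was 56.4% on CL replicate 1 and 53.1% on CL replicate 2. Over the 52 members that passed on neither array it was -6.68% and 3.29%. The classes were sorted on these same CL and saline values, so these shares differ by construction and nothing is read from that.

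By limma over all 43444 probes, fitted on the 6 tissue arrays, 0 members passed an adjusted p of 0.05 for CL against saline white fat, as did 0% of all probes. At an unadjusted p under 0.05, 29 members passed, of which 25 were higher after CL, a direction in which 1.96% of all probes passed. The saline white fat arrays of this contrast also chose the members, for low values there. Every member was also tested by way of its brown fat values, which all probes were not. Nothing is therefore read from the 25 members beside that share. With only the 2 groups compared in the fit, 69 members were tested and 0 passed an adjusted p of 0.05. In the fit on 6 arrays the smallest adjusted p among members was 0.174, for ASMM9PARTA029387 (173-fold, log2 7.43, SE 0.62, n = 2 each, limma). ASMM9PARTA027470, ASMM9PARTA029772 and ASMM9PARTA027999 followed with limma adjusted p = 0.404 each. The 2 saline white fat arrays were apart for ASMM9PARTA029387 (SD 1.19), as they were for ASMM9PARTA029736 (SD 1.00). Without 1 of these arrays the saline group has no spread of its own, so no test result is given for such fits. With normexp 8 members passed by limma, all higher after CL, namely ASMM9PARTA029387, ASMM9PARTA029772, ASMM9PARTA027999, ASMM9PARTA029736, ASMM9PARTA042747, ASMM9PARTA043308, ASMM9PARTA020481 and ASMM9PARTA027470. No share of all probes is given for normexp, and the saline arrays chose the members there too. Nothing is therefore read from these 8.

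The 2 CL arrays differed from each other in scale as well as in members. The median of all tested probes lay at -0.29 on CL replicate 1 and at 0.13 on CL replicate 2, relative to the saline white fat mean, and the median of the members at 0.01 and 0.80. Members thus lay above the median of all probes by 0.30 and 0.66 (log2), by 0.43 and 0.67 under quantile normalization, and by 0.08 and 0.35 with normexp, which put the member medians themselves at -0.22 and 0.56. The saline arrays chose the members for low values, so nothing is read from these differences. Outside the rule, block probes with a brown over white difference of 2 to 3 had medians of 0.25 and 0.83 on CL replicates 1 and 2. Those with a difference of 1 to 2 had 0.19 and 0.55. Replicate 2 was higher than replicate 1 by a median of 0.61 over members and 0.52 over all tested probes, and 37.6% of members and 35.0% of all tested probes were at least 2-fold apart. The part of this scale difference in the 17 members counted on replicate 2 alone was not tested. Under quantile normalization the shares of members above saline on CL replicates 1 and 2 were 18.8% and 36.5%, as before.

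The CL differences of the members were also compared between the CL arrays. With each CL array set against a different saline array, so that no array was shared, the CL differences correlated across the 85 members at r = 0.86 and, with the saline arrays exchanged, r = 0.71. Across 18753 block probes r was 0.15 and -0.28. Members cover a wider range of differences than other probes, and the saline arrays entered the rule, so these values describe the list only.

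**Figure D2:**
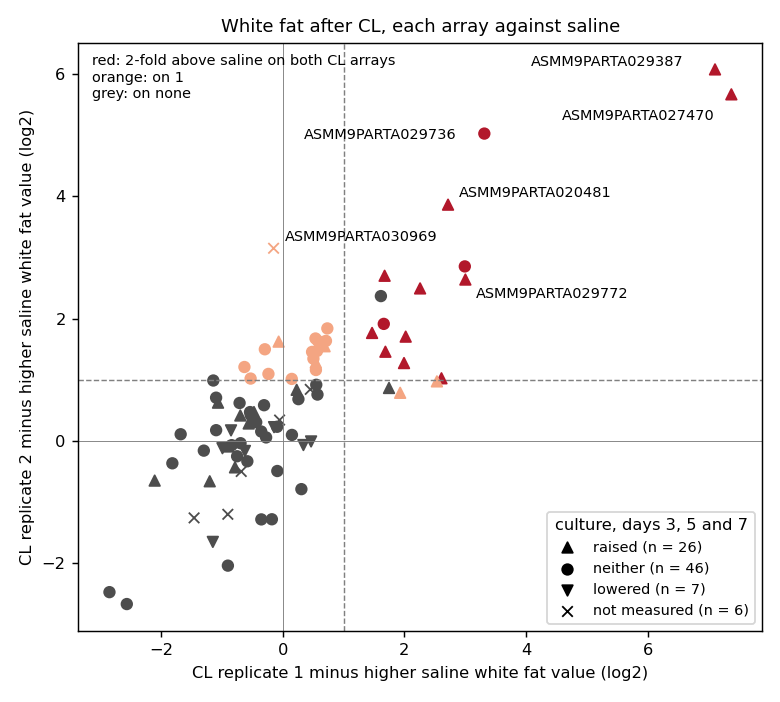
CL replicate 1 (horizontal) and replicate 2 (vertical) minus the higher saline white fat value, in log2 units, for each of the 85 members, with dashed lines at 1 (2-fold) and the shape giving the culture class. The 14 red points, with ASMM9PARTA029387 at 7.11 and 6.08, lie above both lines, and most other points lie around 0. Grey points beyond a line were not well above background on that CL array.

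Some members were lower after CL than after saline. On both CL arrays 2 members, ASMM9PARTA031395 and ASMM9PARTA021175, lay at least 2-fold below the lower saline value (2.35% of members, beside 1.1% of all probes tested), and 7 on replicate 1 and 5 on replicate 2 did so, beside 10% and 5.34% of all probes tested. ASMM9PARTA031395, bright in brown fat at 7.57 and 7.92, was at 2.72 and 1.32 after saline and at 0.16 and 0.06 after CL, well above background on all of these arrays (log2 -1.91, SE 0.50, limma adjusted p = 0.626). ASMM9PARTA027843 was at -3.05 and -4.65 after saline and at -5.89 and -5.52 after CL, where it was not well above background. ASMM9PARTA021175 stayed within background on all 4 white fat arrays, so no fold is given. Without the 2-fold step, 35 members had both CL values above both saline values and 11 had both below, beside 12.6% and 15.4% of all probes tested. That count does not ask for the background mark. In both directions it includes members not well above background on any of the 4 white fat arrays, whose order is not a measured difference.

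The 4 members furthest apart between the CL arrays were all higher on replicate 2. ASMM9PARTA030969 was at -5.85 and -2.55 on replicates 1 and 2 and was well above background only on the second. ASMM9PARTA043911 was at -2.76 and -0.63, ASMM9PARTA043709 at -2.83 and -0.99 and ASMM9PARTA041993 at -2.66 and -0.86. For these probes the mean over the CL group describes neither array.

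White fat after CL was also set beside brown fat, whose high values chose the members. The higher CL value reached the lower brown fat value for 3 members, ASMM9PARTA029736, ASMM9PARTA020481 and ASMM9PARTA027470. In the same limma fit 75 of 85 members were lower in CL white fat than in brown fat and 0 were higher, beside 1.51% of all probes lower. The brown fat arrays entered the rule, so nothing is read from that count, which was 52 with array weights. The 10 members not called were those 3 with ASMM9PARTA042747, ASMM9PARTA043308, ASMM9PARTA020222, ASMM9PARTA027436, ASMM9PARTA035186, ASMM9PARTA028748 and ASMM9PARTA044076, with log2 differences from 2.19 for ASMM9PARTA027470 to -2.12 for ASMM9PARTA035186 (limma adjusted p = 0.0512 to 0.458).

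In culture, about 1 in 3 members was higher on every later day than on day 0, and most others showed no such steady difference. A member was counted as raised when it was at least 2-fold above day 0 on each of days 3, 5 and 7. Of the 79 members that passed the background mark on 1 or more of the cell arrays, 26 were raised (32.9%), 7 lowered and 46 neither, beside 5.36% raised and 6.2% lowered of 48586 probes. There is 1 array per day, so these are differences between arrays with no replicate check. The median difference from day 0 was 0.36, 0.36 and 0.40 on days 3, 5 and 7 over members, and -0.16, -0.23 and -0.11 over all probes tested in tissues and measured in culture. Of the raised members 16 were highest on day 7, 5 on day 5 and 5 on day 3. The background mark was missing on day 0 for 7 of the 26, so the size of their rise is not measured. With normexp 18 members were raised.

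The members described first had the largest smallest rise over day 0 on days 3, 5 and 7. That choice asks for a wide difference on day 3 already, so nothing is read from their timing. ASMM9PARTA020481 went from -1.59 on day 0 to 6.99, 7.11 and 7.85 on days 3, 5 and 7, a 696-fold difference between day 7 and day 0, and ended 2.10 above its brown fat mean. ASMM9PARTA029772 went from -1.75 to 5.50, 7.09 and 7.81, and ended at -0.33 relative to its brown fat mean. Both were well above background on all 4 days. ASMM9PARTA027436 took more even steps, from -2.88 to 2.92, 5.66 and 7.23, the widest range of the 3. ASMM9PARTA030290 was highest on day 5, at -2.37, 3.15, 3.66 and 2.82.

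ASMM9PARTA036155 and ASMM9PARTA039816 were not well above background on day 0 and stood at 3.55 and 3.38 on day 7, with steps from 1.81 and 2.73 on day 3. Day 7 was 190-fold and 169-fold above the day 0 floor, the lowest signal well above background on that array. With normexp their log2 differences between days 7 and 0 were 5.88 and 5.48. These are smaller steps, so the 2 folds are not lower bounds. On neither CL array were these 2 probes counted as above saline. ASMM9PARTA036155 had 2.07 and 2.68 after CL against 1.26 and 1.84 after saline, and ASMM9PARTA039816 had 1.51 and 2.45 against 1.98 and 1.79.

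ASMM9PARTA029387 was higher on each later day, going from -4.93 on day 0, where it was not well above background, to -1.70, 0.75 and 3.05. At day 7 it was 134-fold above the day 0 floor (log2 5.14 over day 0 with normexp, a smaller step) and still at -5.76 relative to its brown fat mean. ASMM9PARTA027470 peaked on day 3, at -4.33, 2.04, -0.79 and -2.22. ASMM9PARTA029736, among the highest after CL, was not raised in culture, at -1.09, -2.24, -2.37 and -1.92, levels below both of its saline white fat values.

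The 7 lowered members included ASMM9PARTA029879, second only to ASMM9PARTA029387 in its brown over white difference, which went from 2.97 on day 0 to -1.96 and -0.02 and back to 1.76 on day 7. It was at 0.97 and 1.34 after CL, against 1.08 and 1.11 after saline, so the groups overlapped. ASMM9PARTA025248 went from 3.57 on day 0 to 0.17 on day 3 and 0.68 on day 5, ASMM9PARTA025373 from 3.43 to 0.76, 0.71 and 1.22, and ASMM9PARTA025636 from 2.30 to -0.27, -0.27 and 0.42. These 3 probes had their highest culture value before differentiation and their next highest on day 7. ASMM9PARTA025333, named for the size of the smallest of its 3 drops, was well above background on day 0 alone, so its later values are only bounds.

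A limma trend on the day, with 2 residual degrees of freedom, called 0 of 79 members and 0% of 48586 probes at an adjusted p of 0.05. At an unadjusted p under 0.05, 26 members had a trend, 25 of them upward, a direction in which 4.63% of all probes passed. The smallest adjusted p among members was 0.297. With the test limited to probes that passed the background mark on all 4 days, 2 of 60 members passed, ASMM9PARTA027436 and ASMM9PARTA028786 (limma adjusted p = 0.0435 each). They differed between days 7 and 0 by 10.10 and 5.17. No share of all probes is given for that limited test, so nothing is read from the count.

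Day 7 values were set beside the brown fat values, which entered the rule, so nothing is read from the counts. On day 7, 6 members reached their lower brown fat value, 12 came within 2-fold of it or above, and 57 were at least 8-fold below it, 13 of which were not well above background on day 7. Of the 14615 block probes well above background on both brown fat arrays, 2.98% were at least 8-fold below. The 3 furthest above their brown fat mean were ASMM9PARTA020481, ASMM9PARTA043308 and ASMM9PARTA042747, by 2.10, 1.72 and 1.44, and all 3 were among the 14 members above saline on both CL arrays. The 3 with the lowest day 7 value relative to brown fat were ASMM9PARTA025232, ASMM9PARTA031395 and ASMM9PARTA025333. Of these only ASMM9PARTA031395 (-9.04) was well above background on day 7, and the other two have only a bound there, with no order between them. ASMM9PARTA031395 was well above background on all 4 days, between -2.11 and -1.30.

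The culture classes were then counted within the CL classes. Of the 14 members above saline on both CL arrays, 11 were raised and 0 lowered (78.6% raised). Of 18 measured members above saline on 1 CL array, 5 were raised (27.8%), and of 47 measured members above saline on neither, 10 were raised and 7 lowered (21.3% raised). Median culture values of the 14 ran from -1.67 on day 0 through 2.09 and 3.48 to 4.20 on day 7, while the 52 above saline on neither array had medians of -2.71, -2.21, -2.50 and -2.09. The difference between these shares was not tested. The 14 were also brighter, with medians of 5.655 in brown fat and 0.21 in saline white fat, beside 3.07 and -2.37 for the 52. The background mark was missing on both saline arrays for 1 of the 14 and 10 of the 52. The part of brightness in these shares was not tested. Across the 79 members the mean CL difference and the difference between days 7 and 0 correlated at r = 0.44 (rho = 0.48), and at r = 0.44 and 0.41 for CL replicates 1 and 2 alone. Across 18753 block probes r was 0.22. The tissue and cell arrays share no library, and probes are not independent replicates. The 3 exceptions among the 14 were ASMM9PARTA029736, ASMM9PARTA027999 and ASMM9PARTA033923.

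**Figure D3:**
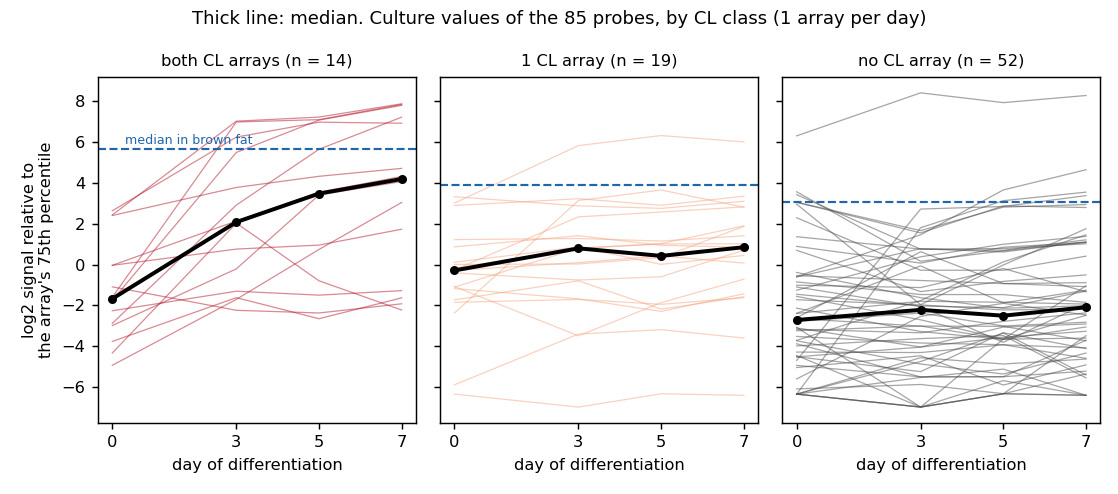
Culture values of each member (thin lines) against day of differentiation, as log2 signal less the array's 75th percentile, split by the number of CL arrays on which the member was at least 2-fold above saline, with the median of each group as a thick line and its median brown fat mean as a dashed line. The median goes from -1.67 to 4.20 in the 14 members above saline on both CL arrays, and ends at 0.86 and -2.09 in the other groups.

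The 2 brown fat arrays differed for many members, and the direction was counted within the same CL classes. Of the 52 members above saline on neither CL array, 37 were higher on brown fat replicate 2, by a median of 0.50, while 4 of the 14 members above saline on both were, with a median of -0.39. Over all tested probes 53.7% were higher on brown fat replicate 2, by a median of 0.04. Across members the brown fat replicate difference and the mean CL difference correlated at r = -0.46 (rho = -0.39), beside r = -0.08 across 18753 block probes. The brown and saline white fat arrays entered the rule, and probes are not independent replicates. These counts and correlations therefore describe the list only. Under quantile normalization the 2 medians were 0.50 and -0.36, and the difference between the classes was not tested. The labels give no difference between the 2 brown fat samples, and without gene names no other tissue's markers can be set beside this split.

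**Figure D4:**
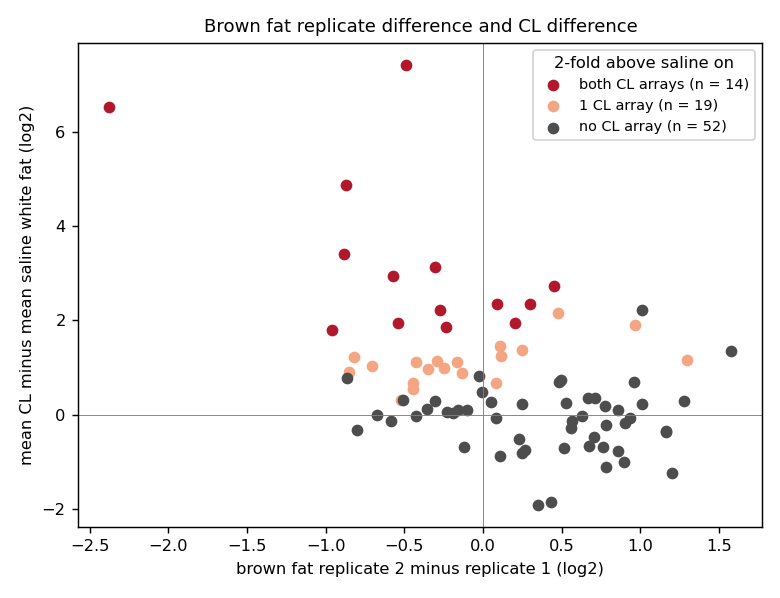
Brown fat replicate 2 minus replicate 1 (horizontal) against mean CL minus mean saline white fat (vertical), both in log2 units, for the 85 members coloured by the number of CL arrays on which they were at least 2-fold above saline. Red points, above saline on both CL arrays, lie mostly left of 0, and 37 of the 52 grey points lie right of it.

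The members were also divided by the size of the brown over white difference. Of the 26 members with a difference of 5 or more, 4 were above saline on both CL arrays and 4 of 22 measured were raised in culture (18.2%). Of the 59 with a difference of 3 to 5, 10 were above saline on both CL arrays and 22 of 57 were raised (38.6%). Among block probes with a difference of 2 to 3, outside the rule, 4 of 191 were above saline on both CL arrays (2.09%) and 16.1% were raised. Brown fat replicate 2 was the higher one for 21 of the 26 (80.8%), 27 of the 59 (45.8%) and 46 of the 191 (24.1%), beside 53.7% of all tested probes. Among the brown-enriched probes of the value table it was higher for 14 of 57 (24.6%). The brown and saline white fat values behind the replicate and CL counts also set these divisions. Nothing is therefore read from how those counts differ between them.

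Members were uneven along the design numbers. Numbers 24000 to 25999, a stretch picked after its values were seen, held 12 members (14.1%), where 7.34% of block probes well above background in brown fat lie. Of these 12, 0 were above saline on both CL arrays, 10 were above saline on neither, and of the 10 measured in culture 0 were raised and 4 lowered. Of the same 12, 10 were higher on brown fat replicate 2, by a median of 0.67, and 9 had a brown over white difference of 5 or more. Of the 12, 2 bright ones are named here after their values were seen. ASMM9PARTA025067 was at 4.37 and 5.08 in brown fat, -2.98 and -2.42 after saline, -2.51 and -2.19 after CL and between -2.22 and -1.72 in culture. ASMM9PARTA025392 was at 6.99 and 7.56 in brown fat, 0.51 and 0.98 after saline, 0.28 and 0.94 after CL and between 0.76 and 1.37 in culture. For both probes the CL and saline values overlapped, and culture values stayed within 1 of each other. Numbers 28000 to 29999 held more members, 13 (15.3%, beside 8.50% of the block probes well above background in brown fat), and differed from that stretch. Of these 13, 4 were above saline on both CL arrays, 7 were raised in culture, 1 was lowered and 5 were higher on brown fat replicate 2. What the order of the numbers stands for is not given in the sources used here.

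Lists chosen in like ways were set beside the members. The mirrored rule, white over brown by at least 3, gave 190 block probes, of which 56 (29.5%) were at least 2-fold below saline on both CL arrays and 0 at least 2-fold above on both, beside 1.1% and 0.451% of all probes tested. That list was chosen for high values on the saline arrays from which its CL difference is measured. Among probes of the value table, 57 met the brown rule, of which 5 (8.77%) were above saline on both CL arrays and 19.3% were raised in culture, beside 16.5% and 32.9% of the members. These lists use the same arrays, and the differences between them were not tested.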

How the data were processed

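Per the labels' protocols, Cy3-labelled cRNA from total RNA was hybridised to 1-colour arrays. Per the file headers, the deposited files hold spot intensity values and flags from Agilent Feature Extraction 11.0.1.1 (9.1 per the submitters' processing notes) for a design annotated on mm9. The deposited value table holds log2 values whose making no source used here describes. It served only to show which probes it lists.

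The log2 processed signal was averaged over the spots of a probe without outlier-flagged spots and reduced by the 75th percentile of its array. Every member has 1 spot. limma 3.58.1 in R 4.3.3 (lmFit, eBayes, two-sided, Benjamini-Hochberg) was fitted to group means of the 6 tissue arrays over 43444 probes well above background on both arrays of a group and with a value on every array (3 residual degrees of freedom, prior 4.45). A second fit used day as a number over 48586 probes (2 residual degrees of freedom). Both were tested on simulated data. Alternatives were quantile normalization, median scaling, normexp (offset 50), other filters and folds, array weights, a replicate block and leaving out each array. The number of arrays limits the precision. Members and lists were chosen with earlier results of these data known. Probes were named by rank of their brown over white difference, CL difference, gap between CL arrays, culture rise or drop, and day 7 distance from brown fat, as well as by closeness to the threshold. The other members of a class named in full, and those named as such, were chosen after their values were seen.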

Additional observations from a re-analysis of the deposited data

How the results depend on the processing

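The rule gave 95 members under quantile normalization, 89 with median scaling and 55 with normexp (of which 54 were among the 85), 276 and 42 at differences of 2 and 4, 88 without the background mark, and 105 to 192 without 1 array. Since the files hold no mean signal, normexp used the median signal, a setting chosen after seeing the files.

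Members called by limma between CL and saline white fat numbered 8 with normexp, 1 with the test limited to probes that passed the background mark on all 6 tissue arrays, and 0 to 3 without 1 array. With the replicate number as a block there was 1 (ASMM9PARTA029387, limma adjusted p = 0.0139). Under the other settings with 2 arrays per group there were 0. No share of all probes is given for normexp, the limited test or the block, so nothing is read from these counts. The labels do not say that replicate numbers pair arrays across groups. Deviations of same-numbered arrays correlated at -0.02 (brown and saline white), -0.08 (brown and CL) and 0.50 (saline white and CL). Against brown fat the count was 46 to 81 without 1 array.

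The shares of members above saline on each CL array and the 26 raised members stayed within 1.5 times under every setting run. The median CL difference over members, 0.32, was 0.80 without CL replicate 1 and 0.01 without CL replicate 2. The 7 lowered members were 13 at 1.5-fold. The 14 members up on both CL arrays were 12 to 19 in alternatives chosen after seeing the data. The culture trend called 2 members when probes had to be well above background on all 4 days, with no share of all probes beside it. In saline white fat 12 members were not well above background on any array and 6 were on 1 of the 2, and in culture 6 were on none and 19 on some of the days.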
